A study of Rattus norvegicus with 6 samples.

Results

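The response of the rat sciatic nerve to a crush was compared between nerves taken 4 days after injury (D4) and control nerves, across every mRNA and every long noncoding RNA (lncRNA) measured. The comparison uses 4 of the 6 samples of the series, chosen by their labels as the libraries of the D4 group (2 rats, libraries a and b) and of the control group (2 rats, libraries a and b). The rats were 1-month-old Sprague-Dawley rats of a sex not given in the sources used here. In the D4 group the middle of the left sciatic nerve had been clamped with hemostatic forceps and released. The labels call the control nerves normal, and the study's methods describe the control rats as having had the operation without the clamp. Each library holds the RNA of 1 nerve from 1 rat after removal of ribosomal RNA. The remaining 2 libraries, from nerves 7 days after crush (D7), entered the same fit and shared its estimate of the spread between rats, and they were also compared with D4 for the named genes.

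A crush cuts axons while leaving the basal lamina tubes in place, and the nerve beyond the lesion goes through Wallerian degeneration. In that process axons break up, myelinating Schwann cells let go of their myelin program and turn into repair Schwann cells that divide, secrete trophic factors and help clear myelin, and macrophages enter from the blood. In whole-nerve RNA a lower level can come from fewer cells of a type or from less RNA per cell, and these cannot be told apart here.

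The 4 libraries held 18751038 to 25350886 fragment counts over mRNA genes and 2708596 to 3043817 over lncRNA transcripts. The label of nerve was checked on the Schwann cell genes. S100b, a calcium-binding protein of Schwann cells, held 1244 and 1072 FPKM in the control nerves and 805 and 806 FPKM at D4. Sox10, the transcription factor that marks Schwann cells at every stage, held 102 and 75.2 FPKM in the control nerves and 105 and 122 FPKM at D4. The Sox10 difference was 0.07 on the log2 scale (SE 0.21, adjusted p = 0.81). Within both groups, marker sums of other cell types differed between the 2 libraries. The 12 genes of the smooth muscle and pericyte list summed to 2664 FPKM in control library b against 516 in control library a, and to 570.5 and 622 in the D4 libraries. D4 library a held more than D4 library b of the skeletal muscle list (64.6 against 10.2 FPKM), of the pigment cell lineage list (652 against 278) and of the adipocyte list (483 against 251). The pigment list difference lay in Gpnmb, which is also on the macrophage list (562 against 183 FPKM). Tyrp1, on the pigment list, held 2478 counts in both D4 libraries.

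The response was broad and ran in both directions. Of 15195 mRNAs tested, 1706 (11.2%) were called higher and 1627 (10.7%) called lower at D4, together 3333 (21.9%), where a call needed an adjusted p under 0.05 in edgeR's quasi-likelihood test together with a difference of 2-fold or more. The called genes were not evenly spread in size. Of these, 808 higher and 615 lower genes differed by at least 4-fold, and 195 and 139 by at least 16-fold. At the extremes, 131 of the higher mRNAs held 3 counts or fewer in both control nerves and 58 of the lower ones held 3 or fewer in both D4 nerves. The median log2 fold change over all mRNAs tested was -0.04. With library totals in place of the trimmed-mean (TMM) scaling, the median moved to 0.25 and the split became 2430 higher and 1077 lower, so that changes below are relative to the TMM scaling.

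The make-up of the mRNA pool turned over with these calls. Levels between genes are given in FPKM, fragment counts divided by transcript length and library depth, which the authors computed. The study's methods describe TMM normalisation of the fragment counts before FPKM was calculated. For the lncRNAs ranked below, the depth implied by FPKM was 0.96 to 0.962 of a library's total of mRNA and lncRNA counts. The FPKM of these lncRNAs thus carries no TMM factor, and the same value was not computed for mRNAs. Ratios of FPKM can differ from the fold changes, which come from the fitted counts. The 1706 higher genes held 4.65% and 4.87% of the summed FPKM in the control nerves and 18.2% and 18.3% at D4. The 1627 lower genes held 25.5% and 22.0% in the control nerves and 4.59% and 4.68% at D4. The 12 genes with the largest falls alone went from 12.3% and 9.17% of the pool to 0.46% and 0.532%, a wider swing than that of the 12 largest rises, which went from 1.34% in both control nerves to 5.21% and 5.01%.

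**Figure D1:**
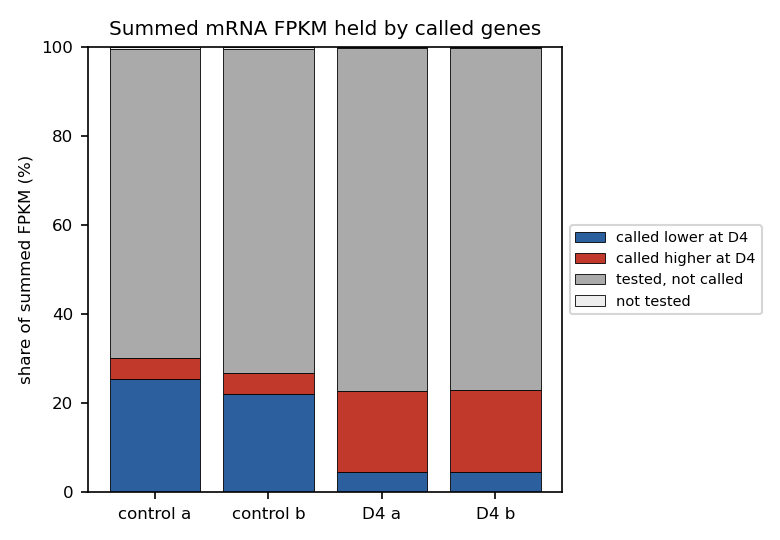
Share of the summed mRNA FPKM (%, y axis) held by genes called lower, called higher, tested and not called, and not tested at D4, in each of the 4 libraries (x axis). The lower genes shrink from 25.5% and 22.0% in the control libraries to 4.59% and 4.68% at D4, while the higher genes grow from 4.65% and 4.87% to 18.2% and 18.3%; the genes were chosen by the same contrast, so the picture is a description.

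Among the 12 largest falls in FPKM, 9 were of myelin or lipid synthesis genes. Pmp22 (Rnor_6.0 chr10:49538588-49568583), a tetraspan protein of compact myelin, held 4998 and 3484 FPKM in the control nerves and 83.8 and 101 FPKM at D4, 56.3-fold lower (log2 fold change -5.81 ± 0.36 (SE, n = 2), adjusted p = 0.000186). Prx, the periaxin that links the Schwann cell membrane to its cytoskeleton, held 1368 and 982 FPKM in the control nerves and 8.22 and 8.52 FPKM at D4 and was 172-fold lower. In each of these genes the D4 nerves lay far below the control nerves. That the groups did not overlap was a condition of the ranking, and 76.2% of all mRNAs tested did not overlap. The 9 also included Mbp, Pmp2, Mal, Ncmap, Hmgcs1 and Fasn, and the other 3 of the 12 were Secisbp2l, Cd9 and Ndrg1. The log2 fold changes of these 3 were -3.37, -2.53 and -2.42. The call for Fasn was lost without D4 library a (log2 -3.24, adjusted p = 0.0551).

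The 12 largest rises drew on several kinds of gene. Vim, the intermediate filament of immature glia and mesenchymal cells, rose most in FPKM, from 1490.4 and 1300.4 to 6169.6 and 6777 (log2 fold change 1.92 ± 0.17 (SE, n = 2), adjusted p = 0.000453). The lipid carriers Apod and Apoe came next. Apod held 827 and 959 FPKM in the control nerves and 3499.7 and 3685 FPKM at D4, and Apoe 349 and 259 FPKM in the control nerves and 2282 and 1015 FPKM at D4, so that D4 library a held a higher Apoe level than library b. Ngfr, the p75 neurotrophin receptor of immature and repair Schwann cells, had the largest fold of the 12, at 87.7-fold (6.08 and 5.67 FPKM in the control nerves and 611 and 649.5 FPKM at D4). The lysosomal Ctsb and Psap, the macrophage lysozyme Lyz2, the replication-dependent histone Hist1h3f, the ribosomal Rplp0, the thrombospondin Thbs4, the lectin Lgals1 and the actin-like Potef made up the rest, with log2 fold changes from 1.07 in Rplp0 to 3.78 in Hist1h3f. Potef, Hist1h3f and Rplp0 belong to families of near-identical copies, and how shared fragments were divided among copies is not given in the sources used here. The call for Lgals1 was lost without control library b (log2 0.95, adjusted p = 0.00699) or D4 library b (log2 0.97, adjusted p = 0.0179), and that for Rplp0 without control library b (log2 0.94, adjusted p = 0.00276).

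**Figure D2:**
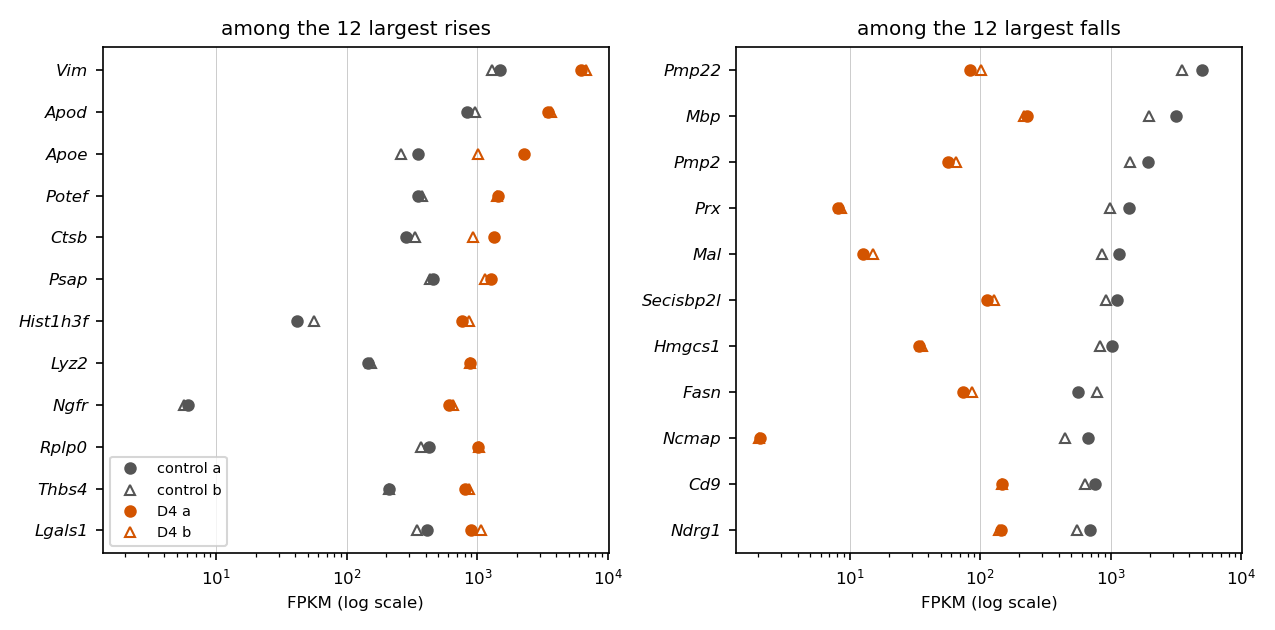
FPKM on a log scale (x axis) of the mRNAs named here among the 12 largest rises (left) and the 12 largest falls (right) in mean FPKM at D4, with 1 point per library. In every gene shown the control points and the D4 points do not overlap, a condition (set on scaled counts) of the ranking that chose them. Prx lies at 1368 and 982 FPKM in the control libraries and at 8.22 and 8.52 at D4.

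Myelin protein genes fell almost as a block. Of 15 structural myelin genes tested, 14 were called lower and none higher (median log2 fold change -5.07, against -0.04 over all mRNAs). The steepest fall with measurable counts on both sides was that of Ncmap, a myelin-associated membrane protein, at 333-fold (675 and 446 FPKM in the control nerves and 2.07 and 2.02 FPKM at D4). Mag, the adhesion protein of the innermost myelin layer, held 63.4 and 45.8 FPKM in the control nerves and 0.555 and 0.704 FPKM at D4, and Mobp fell from 237 and 73 counts to 0 in both D4 nerves, at least 71-fold lower against a floor of 3 counts per library. Cnp, a myelin enzyme of the cytoplasmic loops, was the member that did not pass, at 435 and 318 FPKM in the control nerves and 440.2 and 466 FPKM at D4 (log2 -0.02 ± 0.22, SE).

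Most genes of lipid synthesis were called lower. Of 25 genes of cholesterol and fatty acid synthesis, 22 were called lower and none higher (median log2 fold change -3.21). Idi1, which interconverts the isoprenoid units of the cholesterol pathway, held 216 and 208 FPKM in the control nerves and 7.07 and 8.07 FPKM at D4 (log2 fold change -5.10 ± 0.17 (SE, n = 2), adjusted p = 0.000112). Hmgcs1, an early enzyme of the pathway, held 1018 and 821 FPKM in the control nerves and 33.9 and 36 FPKM at D4, 32.2-fold lower. Srebf2, the transcription factor that drives the pathway, was 3.1-fold lower (70.0 and 62.1 FPKM in the control nerves and 25.2 and 26.8 FPKM at D4), a smaller difference than that of most of its listed targets. The desaturase Scd1 held 2549 and 3682 FPKM in the control nerves and 316 and 171 FPKM at D4. Its groups did not overlap, as in 76.2% of all mRNAs tested, and it was not called (adjusted p = 0.0856). It passed in the fit of the 4 libraries alone and in DESeq2. Adipocyte markers, whose cells also express the fatty acid genes, were lower at D4 as well, with sums of 1019 and 944 FPKM in the control nerves, 483 and 251 at D4 and 84.2 and 550.1 at D7. At D7 Scd1 held 19 and 1105 FPKM and Fasn 76.6 and 283, both lower in D7 library a, as the adipocyte sum was, while the myelin gene Prx held 303 and 193. The part of adipocytes in the values of this list was not tested. Of 10 genes of myelin sphingolipid synthesis, 7 were called lower and none higher, among them Fa2h, which hydroxylates the fatty acids of myelin lipids (235 and 181 FPKM in the control nerves and 2.74 and 2.79 FPKM at D4, 91.8-fold lower), and Ugt8, which makes galactosylceramide (9.73-fold lower). The call for Fasn was lost without D4 library a (log2 -3.24, adjusted p = 0.0551).

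The promoters of these enzymes share a letter pattern that the choice of genes did not use. Promoters were read from RefSeq on the build GRCr8, as the 300 bases from 250 before to 50 after the annotated start of each gene, for 9526 of the 14693 tested mRNAs with a unique symbol. The CCAAT box, the letters CCAAT or their reverse complement, to which the factor NF-Y binds, stood in 14 of the 16 lipid synthesis promoters found (87.5%) and in 37% of all tested promoters. It stood in 37.4% of promoters of all genes called higher and 38.7% of those called lower. The sterol response element TCACNCCAC was in none of the 16 and in 1.14% of all tested promoters, which says only that these letters are not in these windows. The promoters of 4 lipid genes are shown with their CCAAT letters, on either strand, in capitals (Hmgcs1 at chr2:53382079-53382212, plus strand; Idi1 at chr17:66547518-66547627, minus strand; Fdps at chr2:176804860-176804983, minus strand; Acly at chr10:85963661-85963739, minus strand).
Hmgcs1: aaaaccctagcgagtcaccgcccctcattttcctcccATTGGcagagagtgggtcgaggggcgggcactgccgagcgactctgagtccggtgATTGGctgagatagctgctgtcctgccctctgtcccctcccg
Idi1: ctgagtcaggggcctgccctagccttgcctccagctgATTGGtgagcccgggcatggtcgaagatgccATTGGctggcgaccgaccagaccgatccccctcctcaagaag
Fdps: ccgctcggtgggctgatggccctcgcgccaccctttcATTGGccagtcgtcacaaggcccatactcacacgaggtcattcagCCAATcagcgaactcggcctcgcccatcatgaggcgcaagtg
Acly: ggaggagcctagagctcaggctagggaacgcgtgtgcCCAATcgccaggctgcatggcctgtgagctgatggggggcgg

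Of 18 genes of nodes, paranodes and internodal contacts, which tie myelin to the axon, 9 were called lower, 2 higher and 7 neither, and 5 were lower when the 2-fold change itself was tested. Among the lower ones Cadm3, a nectin-like adhesion protein, held 233 and 187 FPKM in the control nerves and 17.1 and 16.8 FPKM at D4 (15.2-fold lower), and the neurofascin gene Nfasc held 81.3 and 67.8 FPKM in the control nerves and 11.2 and 11.8 FPKM at D4 (7.94-fold lower). The 2 called higher were Nrcam and Cadm1, adhesion molecules with roles outside myelin, at 1.24 and 1.04. The spectrin Sptbn1 did not pass, at 0.14 ± 0.11 (SE). Of 25 potassium and sodium channel genes, 10 were called lower and 2 higher. Kcna1 and Kcna2, subunits of the juxtaparanodal potassium channel, fell together. Kcna1 held 109.8 and 82.2 FPKM in the control nerves and 2.95 and 3.71 FPKM at D4. Kcna2 held 93.7 and 78.9 FPKM in the control nerves and 2.42 and 2.24 FPKM at D4. Kcng1, a silent potassium channel subunit, went the other way and held 5 and 8 counts in the control nerves and 997 and 1359 counts at D4 (log2 fold change 6.95 ± 0.31 (SE, n = 2), adjusted p = 0.00012). Scn7a, the sodium channel of non-myelinating Schwann cells, held 217 and 195 FPKM in the control nerves and 19 and 21.2 FPKM at D4 and was 12.5-fold lower.

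Transcription factors of the Schwann cell lineage did not move together. Of 13 tested, 3 were called higher and 2 lower (median log2 fold change 0.05). Egr2, which switches on the myelin genes, held 78.4 and 30.7 FPKM in the control nerves and 5.43 and 7.6 FPKM at D4, 10.3-fold lower, and its cofactor gene Nab1 was 3.1-fold lower. Sox10 did not pass, as given above, and Zeb2, which represses inhibitors of differentiation, did not either (0.05 ± 0.11, SE). Tfap2a, which the Schwann cell precursor expresses, held 3 and 13 counts in the control nerves and 168 and 189 counts at D4 (log2 fold change 3.92 ± 0.55 (SE, n = 2), adjusted p = 0.0025). The other 2 called higher were Myrf and Pou3f2, at 1.59 and 1.22. The call for Pou3f2 was lost without D4 library b (log2 0.90, adjusted p = 0.0588).

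Factors of the repair state rose in 8 of 16 tested and fell in 1. Jun, the AP-1 subunit required for the repair Schwann cell, held 24 and 24.2 FPKM in the control nerves and 149.9 and 159.6 FPKM at D4, 5.26-fold higher (log2 fold change 2.40 ± 0.09 (SE, n = 2), adjusted p = 0.000114). Sox2, which holds Schwann cells immature, held 7.65 and 7.21 FPKM in the control nerves and 61.7 and 64.5 FPKM at D4, 6.94-fold higher. Atf3, an injury-induced partner of Jun, held 0.461 and 0.247 FPKM in the control nerves and 9.13 and 8.21 FPKM at D4, and Runx2 held 1.15 and 1.5 FPKM in the control nerves and 47.2 and 53 FPKM at D4, 31-fold higher. Hmga2, a chromatin protein of embryonic growth, was at 0 counts in both control nerves and at 315 and 321 at D4, at least 73.9-fold higher. The 1 member called lower was Id2, an inhibitor of basic helix-loop-helix factors, at 5.33 and 10.4 FPKM in the control nerves and 3.56 and 3.4 FPKM at D4. Stat3 and Notch1 passed the adjusted p and not the fold threshold, with log2 fold changes of 0.54 and 0.93. The call for Id2 was lost without control library b (log2 -0.92, adjusted p = 0.01) or D4 library a (log2 -1.49, adjusted p = 0.062) or D4 library b (log2 -1.42, adjusted p = 0.0703).

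AP-1 and immediate early genes rose in 10 of 14 tested, and none fell. Fosl1, the FOS family member of lasting stimulation, had the largest difference, at 0.107 and 0.257 FPKM in the control nerves and 12.9 and 14 FPKM at D4 (log2 fold change 5.94 ± 0.39 (SE, n = 2), adjusted p = 0.000215). Fos held 6.69 and 4.03 FPKM in the control nerves and 64.9 and 50.1 FPKM at D4, 8.71-fold higher, and Junb was 3.44-fold higher. Egr1 did not pass (log2 0.70 ± 0.28, SE, adjusted p = 0.0895), nor did Myc (log2 0.56). Jund was called with 2.06-fold and lay near the threshold. The call for Jund was lost without control library b (log2 0.86, adjusted p = 0.00429) or D4 library a (log2 0.97, adjusted p = 0.0226).

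Trophic factors moved in both directions. Of 22 neurotrophic ligands and receptors tested, 10 were called higher and 8 lower. Among ligands, Gdnf, which supports motor and sensory neurons, held 3 and 2 counts in the control nerves and 504 and 722 counts at D4, at least 141-fold higher. Its relative Artn was 5.75-fold higher, and the gp130 cytokines Lif and Clcf1 were 16-fold and 10.5-fold higher (0.739 and 1.05 FPKM in the control nerves and 14.6 and 20.3 FPKM at D4 for Lif). Cntf, the cytokine stored in myelinating Schwann cells, went down from 292 and 235 FPKM to 9.24 and 12.1, 30.2-fold lower (log2 fold change -4.92 ± 0.34 (SE, n = 2), adjusted p = 0.000243). The neurotrophin gene Bdnf was low throughout and called higher, at 1 and 12 counts in the control nerves and 88 and 67 counts at D4, and Ntf3 was called lower (log2 -2.56). The call for Bdnf was lost without D4 library a (log2 2.71, adjusted p = 0.112) or D4 library b (log2 3.26, adjusted p = 0.0707), and that for Ntf3 without control library b (log2 -1.79, adjusted p = 0.178) or D4 library a (log2 -2.64, adjusted p = 0.165) or D4 library b (log2 -2.49, adjusted p = 0.183). The number of members called lower was 5 without D4 library a.

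The receptors did not follow the ligands as 1 group. Ngfr and Gfra1, the GDNF co-receptor, were called higher (Gfra1 held 49.1 and 39.1 FPKM in the control nerves and 367 and 442 FPKM at D4, 7.5-fold higher), while Ret, the signalling receptor that GFRA1 pairs with, held 6.4 and 8.16 FPKM in the control nerves and 0.971 and 1.46 FPKM at D4, 7.28-fold lower. The neurotrophin receptor genes Ntrk2 and Ntrk3 were called lower, at -1.31 and -1.81. Among gp130 receptors, Lifr and Cntfr were called lower (-1.84 and -1.50), Osmr higher (1.35), and the shared subunit Il6st did not pass (0.18 ± 0.11, SE). The call for Ntrk3 was lost without D4 library a (log2 -1.67, adjusted p = 0.0516).

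In the ErbB system 2 of 10 genes were called higher and 4 lower. Btc, the EGF family ligand betacellulin, held 0.756 and 1.15 FPKM in the control nerves and 37.9 and 37.3 FPKM at D4, 32.6-fold higher (log2 fold change 5.03 ± 0.18 (SE, n = 2), adjusted p = 0.000112). Hbegf, Tgfa and Egf, ligands of the same family, were called lower, at -1.97, -2.23 and -1.33. Of the receptors, Erbb3, the neuregulin receptor of Schwann cells, was called higher (96.9 and 82.3 FPKM in the control nerves and 224 and 255 FPKM at D4, log2 1.13), Erbb4 was 7.33-fold lower, and Erbb2 did not pass (0.35 ± 0.15, SE). The call for Erbb3 was lost without control library b (log2 1.0, adjusted p = 0.00601), and that for Egf without control library b (log2 -1.11, adjusted p = 0.0558) or D4 library a (log2 -1.27, adjusted p = 0.0865) or D4 library b (log2 -1.38, adjusted p = 0.0745). In the hedgehog pathway Shh was called higher, at 3.47 and 5.13 FPKM in the control nerves and 27.6 and 36.7 FPKM at D4 (log2 fold change 2.62 ± 0.23 (SE, n = 2), adjusted p = 0.000472), and the other 12 genes tested were not called. They included Dhh, the hedgehog ligand of Schwann cells (75.8 and 62.9 FPKM in the control nerves and 44.9 and 52.4 FPKM at D4), and the target Gli1 (log2 -0.93, under the 2-fold threshold).

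Genes of immature and non-myelinating Schwann cells were mixed, with 2 of 16 called higher (Ngfr and Sox2) and 4 lower, among them Ncam1, Cdh2 and Scn7a. Gap43 and Gfap, classical genes of denervated Schwann cells, had log2 fold changes of 0.83 and 0.41 and did not reach the threshold. S100b, given above, was not called (log2 -0.81). Neuronal mRNAs were scarce in the nerve. Of 11 tested, 3 were called (27.3%, beside 21.9% of all mRNAs). Lower were 2, the neurofilaments Nefl (188 and 177 counts in the control nerves and 20 and 67 counts at D4) and Nefh (95 and 37 counts in the control nerves and 4 and 17 counts at D4), and 1 higher, Map2 (log2 2.25). The call for Nefh was lost without control library a (log2 -2.46, adjusted p = 0.105) or D4 library a (log2 -2.5, adjusted p = 0.126) or D4 library b (log2 -4.39, adjusted p = 0.0547), and that for Cdh2 without D4 library b (log2 -0.94, adjusted p = 0.0136). The number of neuronal members called lower was 1 without control library a, 4 without control library b and 1 without D4 library a.

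Mitosis genes had the highest median of the 43 lists. All 29 mitosis genes tested were called higher, with a median log2 fold change of 4.05 and a range of 2.30 to 5.36. Mki67, the proliferation antigen, held 1.51 and 3.00 FPKM in the control nerves and 36.9 and 46.1 FPKM at D4, 15.1-fold higher (log2 fold change 3.92 ± 0.33 (SE, n = 2), adjusted p = 0.000409). Cdk1, the kinase that drives entry into mitosis, held 0.898 and 1.68 FPKM in the control nerves and 39.4 and 44.9 FPKM at D4, 27.1-fold higher, and Cdc20, an activator of the anaphase-promoting complex, held 2.71 and 4.09 FPKM in the control nerves and 38.7 and 45.9 FPKM at D4, 10.3-fold higher. Of 29 DNA replication genes, 27 were called higher and none lower (median 2.11). Rrm2, the limiting subunit of ribonucleotide reductase, held 0.265 and 0.955 FPKM in the control nerves and 27.7 and 29.6 FPKM at D4, 39.7-fold higher. Pcna, the sliding clamp, and Mcm2, a subunit of the replicative helicase, started from higher levels and rose 3.08-fold and 4.6-fold. Of the 2 not called, Pola1, a DNA polymerase subunit, lay just under the fold threshold, at 0.97.

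The G1 genes rose in 10 of 20 tested and fell in 1. Ccnd1, the cyclin D that mitogens induce, held 13.3 and 18.9 FPKM in the control nerves and 230.0 and 254 FPKM at D4, 12.3-fold higher, and the repressor E2f7 was 14-fold higher. Cdkn1b, the inhibitor p27 of resting cells, was the 1 called lower, at 153 and 141 FPKM in the control nerves and 46.8 and 50.5 FPKM at D4 (log2 fold change -1.88 ± 0.11 (SE, n = 2), adjusted p = 0.000172), while Cdkn1a, the inhibitor p21, rose 2.81-fold. Cdk4 and Ccnd3 did not reach the fold threshold, at 0.74 and 0.84.

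The promoters of the proliferation genes carry different letters in their mitotic and replication members. The cell cycle homology region TTTGAA, a site of the complex that holds G2 and M phase genes silent in resting cells, was sought on both strands. It stood in 18 of 24 mitosis promoters (75.0%), in 1 of 22 replication promoters (4.55%) and in 11.8% of all tested promoters. Outside the cell cycle, it stood in 6 of 19 promoters of the macrophage marker list (31.6%). The E2F site TTTCGCGC stood in 8 of 22 replication promoters (36.4%), in 1 of 24 mitosis promoters (4.17%) and in 0.588% of all. CCAAT stood in 70.8% and 63.6%. Over all genes called higher at D4, TTTGAA stood in 205 of 1101 promoters (18.6%) and TTTCGCGC in 17 (1.54%). Over genes called lower the shares were 10.3% and 0.202%. The lists were written from textbook function and the shares are a description, without a test. 6 mitosis promoters are shown around the TTTGAA letters, which are in capitals (Mki67 at chr1:199952650-199952747, minus strand; Cdk1 at chr20:19265184-19265319, plus strand; Birc5 at chr10:103572101-103572180, plus strand; Plk1 at chr1:186147627-186147706, plus strand; Cdc20 at chr5:137255808-137255887, minus strand; Prc1 at chr1:143659426-143659505, plus strand). They and those that follow were chosen after their matches were seen.
Mki67: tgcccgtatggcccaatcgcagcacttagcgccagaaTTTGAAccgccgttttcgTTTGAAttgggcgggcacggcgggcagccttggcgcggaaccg
Cdk1: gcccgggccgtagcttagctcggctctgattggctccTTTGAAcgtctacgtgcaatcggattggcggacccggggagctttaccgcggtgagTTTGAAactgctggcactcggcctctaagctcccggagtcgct
Birc5: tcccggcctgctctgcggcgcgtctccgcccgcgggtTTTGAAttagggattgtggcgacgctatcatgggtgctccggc
Plk1: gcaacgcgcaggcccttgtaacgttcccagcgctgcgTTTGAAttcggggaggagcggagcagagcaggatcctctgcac
Cdc20: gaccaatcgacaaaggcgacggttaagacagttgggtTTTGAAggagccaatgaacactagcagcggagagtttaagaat
Prc1: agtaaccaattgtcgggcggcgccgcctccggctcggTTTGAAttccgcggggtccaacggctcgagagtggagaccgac

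5 promoters of the replication list are shown in the same way around TTTCGCGC or its reverse complement, in capitals (Mcm2 at chr4:122918060-122918145, minus strand; Mcm3 at chr9:30733697-30733770, minus strand; Mcm6 at chr13:42404443-42404524, minus strand; Mcm7 at chr12:22163186-22163267, minus strand; Cdt1 at chr19:67529219-67529298, plus strand). In Mcm2 the site and its reverse complement overlap, which makes the longer run of capitals. The 5 genes rose 4.6-fold (Mcm2), 7.39-fold (Mcm3), 7.96-fold (Mcm6), 2.77-fold (Mcm7) and more in Cdt1, which loads the helicase (log2 3.33).
Mcm2: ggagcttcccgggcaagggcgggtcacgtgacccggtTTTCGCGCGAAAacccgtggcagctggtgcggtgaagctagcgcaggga
Mcm3: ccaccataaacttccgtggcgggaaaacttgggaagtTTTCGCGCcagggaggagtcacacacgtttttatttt
Mcm6: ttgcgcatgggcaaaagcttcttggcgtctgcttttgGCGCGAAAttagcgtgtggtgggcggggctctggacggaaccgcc
Mcm7: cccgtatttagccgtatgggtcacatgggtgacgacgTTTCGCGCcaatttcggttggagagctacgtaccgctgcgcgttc
Cdt1: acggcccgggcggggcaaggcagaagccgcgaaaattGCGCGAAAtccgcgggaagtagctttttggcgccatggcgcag

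**Figure D3:**
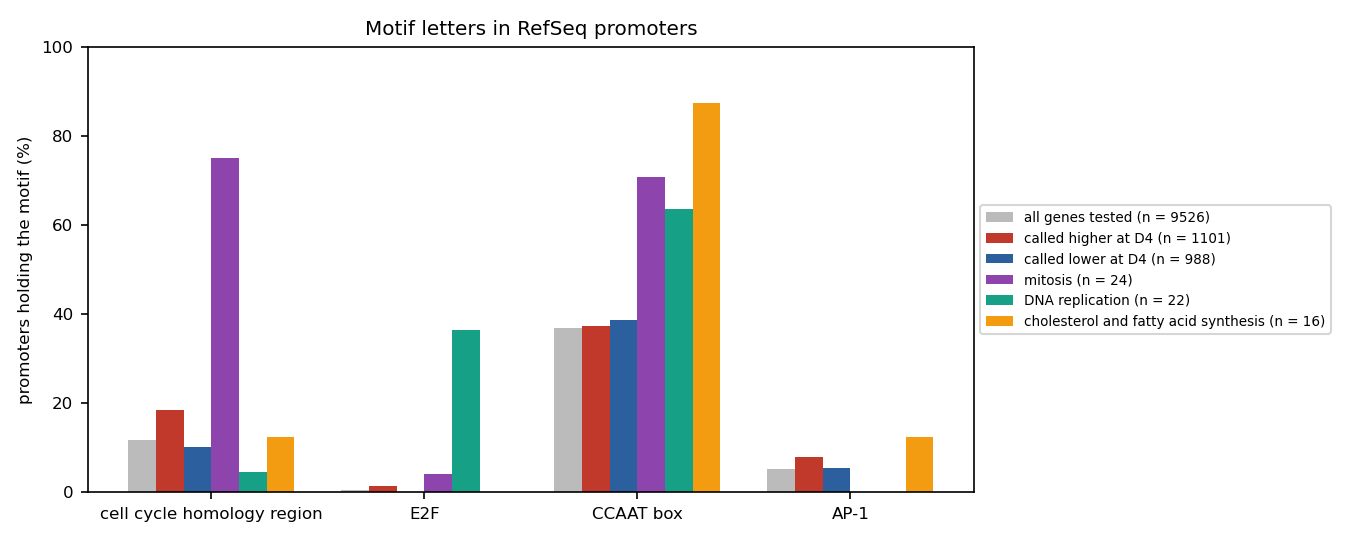
Share of RefSeq promoters (%, y axis) that hold each of 4 motifs (x axis), for all genes tested, genes called higher, genes called lower and 3 gene lists. The cell cycle homology region stands in 75.0% of mitosis promoters against 11.8% of all, E2F in 36.4% of replication promoters against 0.588%, and the CCAAT box in 87.5% of lipid synthesis promoters against 37%.

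Macrophage genes rose together. Of 25 macrophage markers tested, 24 were called higher and none lower (median log2 fold change 2.19), and their summed FPKM went from 326 and 305 in the control nerves to 2204 and 1769 at D4. Csf1r, the receptor that macrophages need to survive, held 20.6 and 17 FPKM in the control nerves and 70.0 and 73.7 FPKM at D4, and Cd68, a lysosomal glycoprotein of macrophages, 9.35 and 7.22 FPKM in the control nerves and 91.7 and 61.7 FPKM at D4, 7.55-fold higher. The scavenger receptor gene Cd163 and the mannose receptor gene Mrc1 rose 2.81-fold and 3.00-fold. Gpnmb, a glycoprotein of lipid-laden macrophages and pigment cells, had the largest fold of the list at 38.4-fold, with 562 FPKM in D4 library a and 183 in library b. Ccr2, the receptor of inflammatory monocytes, was the member not called, at 3 and 4 counts in the control nerves and 14 and 11 counts at D4.

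Signals and effectors of the innate response were called in part. Of 24 chemokines and receptors tested, 9 were called higher and 1 lower. Ccl2, the ligand of CCR2, held 1.22 and 1.15 FPKM in the control nerves and 57 and 79.9 FPKM at D4, 46.9-fold higher (log2 fold change 5.55 ± 0.37 (SE, n = 2), adjusted p = 0.000227). Cxcl12 was the 1 called lower (log2 -1.29). Of 17 inflammatory mediators 7 were called higher and none lower. They included the IL-1 receptor antagonist Il1rn (0.109 and 0.34 FPKM in the control nerves and 5.64 and 6.3 FPKM at D4) and Tgfb1 (3.35-fold), while Il1b held 0 and 13 counts in the control nerves and 22 and 37 counts at D4 and was not called. Of 18 complement genes 9 were called higher, among them C1qb (18.8 and 17.3 FPKM in the control nerves and 114 and 124 FPKM at D4), which encodes a chain of the first component, and C3 (3.31-fold). Of 13 class II antigen presentation genes 9 were called higher. RT1-Da held 15 and 13.7 FPKM in the control nerves and 40.3 and 41.3 FPKM at D4, and the invariant chain Cd74 had a log2 fold change of 0.62, under the 2-fold threshold. Class II genes are near copies of each other, so their separate values are uncertain. Of 22 interferon-stimulated genes 1 was called higher (Gbp2, log2 2.72) and 1 lower (Rsad2, log2 -1.11), together 9.09% beside 21.9% of all mRNAs, a difference that was not tested. The call for Cxcl12 was lost without control library b (log2 -1.18, adjusted p = 0.0786) or D4 library a (log2 -1.49, adjusted p = 0.0742) or D4 library b (log2 -1.11, adjusted p = 0.139), and that for Rsad2 without control library a (log2 -0.95, adjusted p = 0.072) or D4 library b (log2 -0.87, adjusted p = 0.113). Without control library a, 2 interferon-stimulated genes were called higher.

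Genes of debris clearance rose in part. Of 23 genes of debris uptake and lipid handling, 11 were called higher and none lower (median 0.44). Abca1, which exports cholesterol from cells, held 22.6 and 21.7 FPKM in the control nerves and 302 and 268 FPKM at D4, 10.5-fold higher (log2 fold change 3.39 ± 0.14 (SE, n = 2), adjusted p = 0.000119), and Soat1, which stores cholesterol as ester, was 3.26-fold higher. The receptor gene Axl rose 2.49-fold, and Olr1, a scavenger receptor for oxidised lipoprotein, held 4 and 6 counts in the control nerves and 257 and 381 counts at D4. Abcg1, a second cholesterol exporter, did not pass (log2 0.24 ± 0.13, SE). Of 28 lysosomal genes 12 were called higher and none lower. Ctsb, a cysteine protease, held 284 and 330.5 FPKM in the control nerves and 1339 and 923 FPKM at D4, and Lipa, the lysosomal acid lipase, 3.58 and 4.71 FPKM in the control nerves and 43.5 and 45.3 FPKM at D4, 8.78-fold higher. Of 13 heme and iron genes 4 were called higher and none lower (30.8% in all, beside 21.9% of all mRNAs). Hmox1, the heme oxygenase, led them (9.48 and 7.97 FPKM in the control nerves and 75.1 and 36.8 FPKM at D4).

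Markers of other cell types gave a measure of what else the samples held, and their part in the results above was not tested. Adipocyte marker sums are given above beside the lipid genes. Of 14 tested 3 were called lower (21.4%, the share of all mRNAs being 21.9%), and 12 in the fit of the 4 libraries alone. Several fatty acid synthesis genes of the lipid list, Scd1, Fasn, Acaca and Acly, are also expressed by adipocytes. Smooth muscle markers were called lower in 1 of 12, Rgs5, and in 11 of 12 without control library a, 0 without control library b and 0 without D4 library b. Endothelial markers were called lower in 5 of 20 (25.0%) and higher in none; without control library a the count was 8 and without D4 library b 2. Fibroblast and perineurial markers summed to 2577 and 2557 FPKM in the control nerves and 2625 and 2487 at D4. Of 17 tested, 3 were called higher and 3 lower (35.3% in all). This list also holds Ngfr, named above for Schwann cells, at 6.08 and 5.67 FPKM in the control nerves and 611 and 649.5 at D4. The level sums therefore do not show that the other members stayed level, and the list median was -0.34. Lymphocyte markers were called higher in 7 of 12 and lower in 1, and fewer were called higher when any 1 library was left out. Most of their summed FPKM was Cd4 (15.7 and 14.3 in the control nerves and 57.1 and 51.2 at D4). The T cell genes were low and did not move together. Cd8a held 2 and 11 counts in the control nerves and 99 and 96 at D4. Cd3g, the 1 called lower, held 21 and 22 counts in the control nerves and 5 and 5 at D4. Cd3e was called higher (log2 1.77), and that call was lost without any 1 library (log2 1.47 to 2.09). For neutrophils, S100a9 held 4 and 0 counts in the control nerves and 0 and 0 counts at D4, too few to be tested. Among 6 tested markers, 2 were called higher and 1 lower. Csf3r, called higher, held 48 and 60 counts in the control nerves and 458 and 473 at D4. Mpo held 929 and 854 counts in the control nerves and 195 and 147 at D4 and was not called (log2 -2.89). Cxcr2, the 1 called lower (log2 -1.60), lost its call without control library a, D4 library a or D4 library b (log2 -1.41, -1.78 and -1.44). Skeletal muscle markers summed to 16.4 and 36.9 FPKM against 64.6 and 10.2, with 2 of 16 called lower (12.5%). Mast cell markers were called higher in 1 and lower in 1 of 10 (20% in all). The call for Rgs5 was lost without control library b (log2 -0.92, adjusted p = 0.00915) or D4 library b (log2 -1.22, adjusted p = 0.0613), and that for Fasn without D4 library a (log2 -3.24, adjusted p = 0.0551). The adipocyte count was 1 without control library b, D4 library a or D4 library b, the skeletal muscle count 1 without control library a, control library b or D4 library b, and the count of mast cell markers called higher 0 without control library a or D4 library a.

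Genes of the pigment cell lineage, which shares its neural crest origin with Schwann cells, rose in 6 of 8 tested and fell in 1. Tyrp1, a melanin synthesis enzyme, held 3 and 2 counts in the control nerves and 2478 and 2478 counts at D4, at least 576-fold higher. Ednrb, the endothelin receptor of neural crest cells, held 8.63 and 9.33 FPKM in the control nerves and 26.8 and 38.2 FPKM at D4. The summed FPKM of the list, 652 and 278 at D4, was made up mainly of Gpnmb (562 and 183), which is also a macrophage marker.

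**Figure D4:**
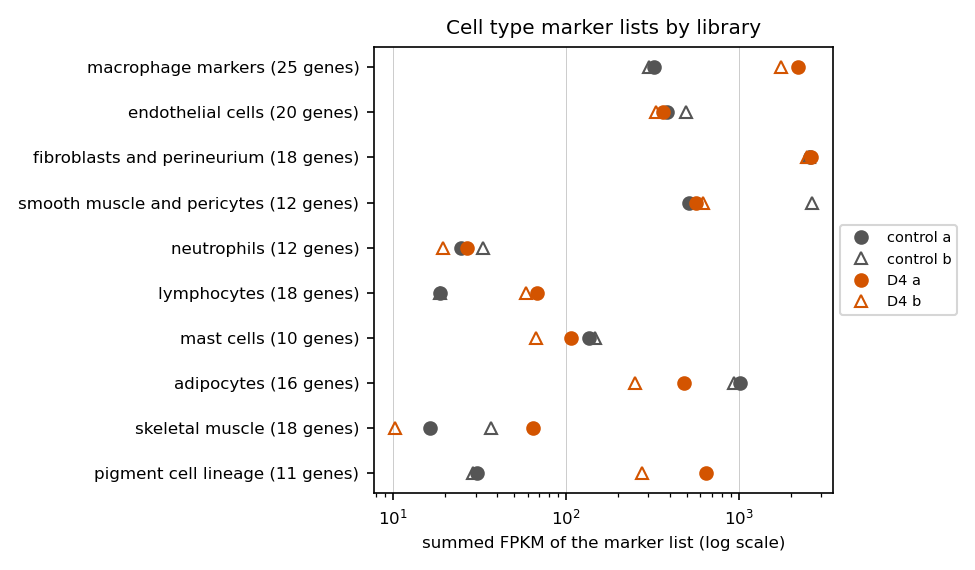
Summed FPKM on a log scale (x axis) of 10 lists of cell type markers (y axis) in each library. Macrophage, lymphocyte and pigment lineage sums are higher in both D4 libraries, and adipocyte sums are lower in both. Most of the lymphocyte sum is Cd4 (15.7 and 14.3 FPKM in the control libraries, 57.1 and 51.2 at D4). The lymphocyte sum therefore does not show how the other members of its list moved. Gpnmb, also a macrophage marker, makes up most of the pigment sum at D4. The smooth muscle sum of control library b (2664) lies apart from the other 3 libraries (516 to 623).

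In the matrix the fibrillar collagens were abundant in both groups. Col1a1 and Col3a1, which build the collagen fibres of the nerve, were not called (log2 -0.66 and -0.78). Col1a1 held 3689 and 4017 FPKM in the control nerves and 3105 and 2842 FPKM at D4. Col3a1 held 4891 and 5624 FPKM in the control nerves and 3969.5 and 3489 FPKM at D4. Col1a2, the usual partner of Col1a1, was listed at 0 in every library, so a 0 in these tables is not read as absence of a transcript. Of 20 collagens 7 were called lower and 2 higher. Col2a1, the cartilage collagen, held 142 and 72.2 FPKM in the control nerves and 0.935 and 1.18 FPKM at D4, 123-fold lower, and Col28a1, a collagen of peripheral glia, held 19.8 and 20.4 FPKM in the control nerves and 1.24 and 1.35 FPKM at D4, 18.9-fold lower. The 2 called higher were Col20a1 and Col18a1, at 2.83 and 1.91. Laminins, integrins and basement membrane genes were called higher in 4 of 23 and lower in 3 (30.4% in all, beside 21.9% of all mRNAs). Itgb4, the integrin that holds the outer Schwann cell membrane to laminin, was 2.9-fold lower (239 and 203 FPKM in the control nerves and 89 and 97.2 FPKM at D4), whereas Itgb8 was 4.37-fold higher. The other 3 called higher, Itgam, Itgax and Itgb2, are leukocyte integrins. The number called lower was 1 without D4 library a. Adhesive glycoproteins were called higher in 6 of 24 and lower in 1 (29.2% in all, near the share of all mRNAs). Tnc, which migrating cells meet in wounds, held 14.5 and 22 FPKM in the control nerves and 128 and 120.0 FPKM at D4, 5.57-fold higher, and Fn1 and Thbs2 rose 2.54-fold and 5.72-fold. Spp1, the osteopontin gene, did not pass (345 and 272 FPKM in the control nerves and 407 and 240.4 FPKM at D4). Sparcl1 was the 1 called lower (log2 -2.77).

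Matrix proteases and their inhibitors rose in 11 of 21 tested and none fell. Mmp12, the macrophage elastase, held 0 and 1 counts in the control nerves and 343 and 51 counts at D4, at least 47.6-fold higher, with D4 library a far above library b. The plasminogen activator Plau and its receptor gene Plaur rose 4.43-fold and 4.7-fold, and the inhibitor Serpine2 held 70.1 and 59.5 FPKM in the control nerves and 449.8 and 462 FPKM at D4, 5.76-fold higher. Timp1 rose 3.29-fold, while Timp2 and Timp3 were not called (log2 -0.39 and -0.18). The call for Mmp12 was lost without control library a (log2 6.91, adjusted p = 0.0574). The AP-1 site TGANTCA stood in 3 of 13 promoters of this list (23.1%), in 88 of 1101 promoters of all genes called higher (7.99%), in 5.57% of those called lower and in 5.24% of all tested. In the promoters of the AP-1 genes themselves it stood in 0 of 9. The 3 are shown with the site in capitals (Mmp12 at chr8:12866528-12866608, plus strand; Plaur at chr1:89181243-89181323, plus strand; Mmp7 at chr8:13132926-13133006, plus strand). Mmp7, a protease of epithelia, was at 0 counts in the control nerves and 73 and 5 at D4, and was not called.
Mmp12: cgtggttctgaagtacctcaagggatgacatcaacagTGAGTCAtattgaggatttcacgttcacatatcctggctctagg
Plaur: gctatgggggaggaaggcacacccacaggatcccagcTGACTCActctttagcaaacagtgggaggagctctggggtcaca
Mmp7: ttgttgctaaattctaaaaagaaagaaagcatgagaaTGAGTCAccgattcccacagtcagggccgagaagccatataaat

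Signalling and metabolic families held calls in both directions. The TGF-beta family had 6 of 24 called higher, led by Gdf15 (log2 3.96) and Tgfb1, and 3 lower, Bmp6, Smad2 and Fst. Its share of calls was 37.5%, beside 21.9% of all mRNAs. Axon guidance genes were called higher in 5 of 31 and lower in 3, a share of calls near that of all mRNAs. Sema3e, a secreted semaphorin, stood out at 0.45 and 0.294 FPKM in the control nerves and 13.6 and 16.5 FPKM at D4, 32.7-fold higher (log2 fold change 5.03 ± 0.22 (SE, n = 2), adjusted p = 0.000119). Oncofetal growth regulators rose in 6 of 13, among them Hmga1 (9.81-fold). In energy metabolism, 4 of 22 glycolysis genes were called higher and 4 lower (36.4% in all, beside 21.9% of all mRNAs). Hk3, the hexokinase of myeloid cells, held 5 and 10 counts in the control nerves and 549 and 282 counts at D4, and the brain-type aldolase Aldoc was 8.26-fold lower. Of 26 respiratory chain genes 1 was called higher (Cox5b) and 1 lower (Ndufv2), and the median log2 fold change was -0.13. The 5 abundant mRNAs with the smallest differences, Uba1, Igfbp7, Calm3, Pcolce and Ifitm3, lay within 0.01 of 0 on the log2 scale, with SE of 0.09 to 0.26. The call for Gdf15 was lost without D4 library a (log2 3.64, adjusted p = 0.0687), that for Bmp6 without D4 library a (log2 -1.76, adjusted p = 0.0585), that for Fst without control library b (log2 -1.46, adjusted p = 0.089) or D4 library a (log2 -2.21, adjusted p = 0.0677) or D4 library b (log2 -1.57, adjusted p = 0.134), that for Cox5b without control library a (log2 1.10, adjusted p = 0.0508) or D4 library b (log2 0.98, adjusted p = 0.074), and that for Ndufv2 without control library a (log2 -0.97, adjusted p = 0.00278) or D4 library a (log2 -0.98, adjusted p = 0.0098). The number of TGF-beta members called lower was 8 without control library a and 1 without D4 library a, that of guidance genes called higher 3 without D4 library b and lower 1 without D4 library a, and that of oncofetal genes 3 without either D4 library.

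**Figure D5:**
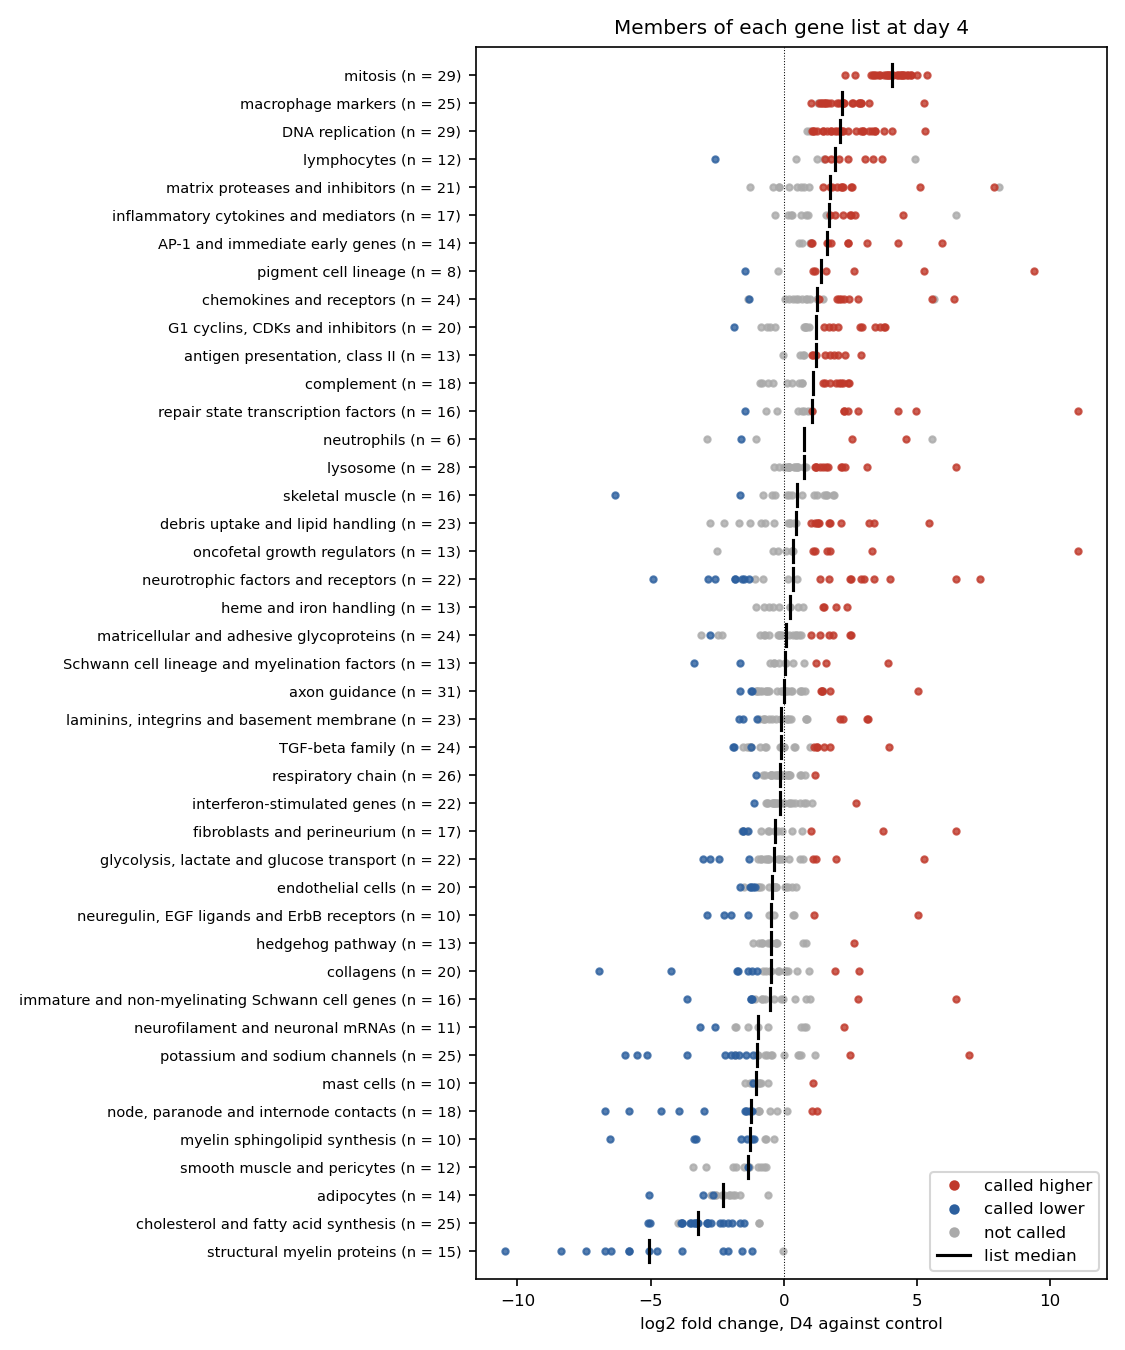
log2 fold change at D4 against control (x axis) of every tested member of the 43 gene lists (y axis), as 1 point per gene coloured by its call, with a bar at each list median. The lists are ordered by median, from structural myelin proteins at -5.07 to mitosis at 4.05; lists in the middle hold called genes in both directions.

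lncRNAs were called less often than mRNAs. Of 14077 lncRNA transcripts tested, 730 (5.19%) were called higher and 685 (4.87%) lower, together 1415 (10.1%). Counts were lower and the spread between rats wider (biological coefficient of variation 0.399 against 0.181 for mRNAs). The count of calls was 750 without control library a, 757 without control library b, 316 without D4 library a and 304 without D4 library b. With library totals in place of TMM factors it was 981 higher and 544 lower with a median log2 of 0.20, and when lncRNAs and mRNAs shared 1 scaling it was 762 higher and 1278 lower with a median of -0.19. By source, newly predicted transcripts were called in 17.5%, Ensembl transcripts in 13% and NONCODE transcripts in 9.13% of those tested. By position, transcripts outside every gene span were called in 15.4% of 3239 tested, those partly overlapping a gene in 11.3% and those wholly inside 1 in 7.52%.

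Of the 8 lncRNAs with the largest rise in scaled counts, 4 lay inside protein-coding genes. MSTRG.28206.23, a newly predicted transcript inside Runx2 (Rnor_6.0 chr9:18567546-18598003), held 47 and 20 counts in the control nerves and 9493 and 15761 at D4 (log2 fold change 8.39 ± 0.50 (SE, n = 2), adjusted p = 0.00239). MSTRG.25154.3, inside Hmga2 (chr7:65244583-65259113), held 7 and 4 counts in the control nerves and 5726 and 7780 at D4. MSTRG.8516.9, inside the MAP kinase phosphatase gene Dusp10, held 321 and 310 counts in the control nerves and 10653 and 12251 at D4, and NONRATT012419.2, inside the transporter gene Slc22a23, held 5 and 30 counts in the control nerves and 6237 and 8010 at D4. In each of the 4 the D4 nerves exceeded the control nerves by over an order of magnitude. Their lack of overlap was a condition of the ranking, and 59.0% of all lncRNAs tested did not overlap. Whether these fragments came from the lncRNA or from the RNA of the gene around it was not tested. Outside genes, NONRATT025432.2 held 4402 and 3401 counts in the control nerves and 15866 and 18680 at D4 and MSTRG.183.1 14310 and 9136 counts in the control nerves and 34054 and 34864 at D4. The remaining 2 of the 8 were NONRATT004417.2, which overlaps Gas7, and ENSRNOT00000090903, the RNA component of the RNase MRP ribozyme. The call for MSTRG.183.1 was lost without D4 library a (log2 1.34, adjusted p = 0.073) or D4 library b (log2 1.44, adjusted p = 0.0654), and that for ENSRNOT00000090903 without control library b (log2 0.95, adjusted p = 0.0272) or D4 library a (log2 1.41, adjusted p = 0.124) or D4 library b (log2 1.19, adjusted p = 0.165).

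Of the 8 lncRNAs with the largest fall, 3 were neighbours on chromosome 1. NONRATT003468.2 (chr1:221156368-221158798), NONRATT003466.2 and NONRATT003467.2 lie within 1 locus, and the first held 221671 and 211456 counts in the control nerves and 92206 and 97932 at D4 (log2 fold change -1.35 ± 0.05 (SE, n = 2), adjusted p = 0.00079). NONRATT030654.2 lies inside Drp2, whose protein binds periaxin, and held 22256 and 16239 counts in the control nerves and 267 and 254 at D4. NONRATT023717.2 overlaps the myelin gene Ncmap and held 9941 and 5788 counts in the control nerves and 7 and 10 at D4 (log2 fold change -9.99 ± 2.08 (SE, n = 2), adjusted p = 0.0398). NONRATT002710.2 (chr1:107366261-107368099) and NONRATT021865.2 (chr4:159185630-159188308) overlap no gene span and fell with log2 fold changes of -5.28 and -4.98. NONRATT021865.2 lies close to Kcna1 (chr4:159190804-159192526), which had a log2 fold change of -5.14. Whether the fragments of NONRATT021865.2 belong to RNA of the Kcna1 gene was not tested. NONRATT004165.2, inside LOC100362038, was at -2.25. The call for NONRATT023717.2 was lost without control library a (log2 -9.64, adjusted p = 0.0971) or control library b (log2 -10.30, adjusted p = 0.097) or D4 library a (log2 -9.83, adjusted p = 0.205) or D4 library b (log2 -10.20, adjusted p = 0.205), and that for NONRATT003467.2 without D4 library b (log2 -1.19, adjusted p = 0.0513).

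lncRNAs inside genes mostly took the direction of those genes. Of 8012 tested lncRNAs lying wholly inside the span of 1 tested gene, 332 were called higher and 268 lower. Among the 332, the gene around them was called higher in 196, lower in 4 and not called in 132. Among the 268, it was called lower in 196, higher in 2 and not called in 70. Of the 5024 genes holding such lncRNAs, 7.98% were called higher and 10% lower. The values of lncRNA and gene come from the same libraries, can share fragments, and the use of strand in counting is not given in the sources used here, so the shared direction is a description and not a second measurement. Some pairs join an Ensembl lncRNA to a gene entry known by a clone name, and both entries may count the same transcript. Examples are ENSRNOT00000076835 and Rn60_X_0635.3 (log2 -1.95 and -2.30) and ENSRNOT00000077132 and AABR07052388.1 (1.56 and 1.21). The number of such pairs was not counted. Over all positions, 25 Ensembl lncRNAs were called higher and 17 lower. The 6 pairs with opposite directions held the genes Ptpre, Utrn, Tiam2, Palm and 2 known by clone names. In Ptpre, a phosphatase gene, MSTRG.2604.2 was at 1.26 and the gene at -2.54 on the log2 scale, and in Palm NONRATT026544.2 was at 2.74 and the gene at -1.28.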

How the data were processed

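Ribosomal RNA-depleted libraries of sciatic nerve were analysed, 2 control, 2 D4 and 2 D7, with 18727255 to 25350886 counts over mRNA genes. Per the labels and the study's methods, the authors aligned reads with HISAT2 2.0.4 to the rat build Rnor_6.0, assembled transcripts and counted fragments with StringTie 1.3.0, and deposited count values per mRNA gene and per lncRNA transcript. The authors also deposited FPKM values, which are used here for levels between genes. The use of strand in counting is not given in the sources used here.

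Counts of all 6 libraries were fitted with edgeR 4.0.16 (TMM scaling, filterByExpr, quasi-likelihood test, Benjamini-Hochberg adjustment over all features tested) in R 4.3.3, separately for mRNAs and lncRNAs. A call needed an adjusted p under 0.05 and a log2 fold change of at least 1 in size. Fold changes against groups at 3 counts or fewer are lower bounds against a floor of 3 counts per library, which covers counting error only. Whether the libraries of a group vary only between rats or also technically cannot be separated. DESeq2 1.42.0 and other settings served as alternatives. The fit was tested on simulated data.

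The 43 gene lists and the choice of comparison were made with earlier results of these data known. Named genes were the key members of each list, its largest called rise and fall and its 3 most abundant members, the 12 largest rises and falls in FPKM, 8 lncRNAs in each direction, and 5 abundant mRNAs that were not called. Chosen after their values were seen were Acaca, Acly, Artn, Birc5, Cadm1, Ccnd3, Ccr2, Cdh2, Cdt1, Clcf1, Cnp, Cntfr, Col18a1, Col1a2, Egf, Egr1, Fdps, Fst, Gfap, Gli1, Itgam, Itgax, Itgb8, Junb, Lifr, Lipa, Mcm3, Mcm6, Mmp7, Myc, Myrf, Nab1, Nefl, Notch1, Ntf3, Ntrk2, Ntrk3, Osmr, Plk1, Pola1, Pou3f2, Runx2, Smad2, Soat1, Tgfa and Timp1, and the genes around the ranked or opposite lncRNAs. Some genes are not reported here.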

Additional observations from a re-analysis of the deposited data

Results flagged for a closer look

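The named genes were also compared between D7 and D4 in the same fit. Of 192 named mRNAs counted for this comparison, 34 were called different between D7 and D4. Cd3g, named above and not among these 192, was also called (log2 difference 2.81, adjusted p = 0.0295). It was lower at D4 and held 5 and 5 counts there and 29 and 29 at D7. A call needed an adjusted p under 0.05 in edgeR's quasi-likelihood test and a difference of 2-fold or more. Other named genes passed the adjusted p alone, as Ngfr did (log2 difference -0.83, adjusted p = 0.0196), and are not listed here. This difference and that of D4 against control both use the D4 libraries, with opposite sign, and most of the genes were named for their change at D4, so a D7 difference that runs against the D4 change is favoured by construction and its direction is given as a description only. Values are log2 differences, D7 minus D4. Among genes lower at D4, higher values at D7 were found in myelin and its lipids, Pmp22 (2.53), Pmp2 (2.26), Prx (4.89), Mag (5.92), Mal (3.14), Ncmap (5.01), Drp2 (2.44), Fa2h (3.38), Hmgcs1 (1.37), Idi1 (1.58), Secisbp2l (1.09); in channels, contacts and matrix, Kcna1 (2.11), Kcna2 (2.95), Scn7a (2.49), Cadm3 (1.03), Col2a1 (4.52), Col28a1 (3.14); and in other genes that had been lower at D4, Cdkn1b (1.17), Id2 (1.88), Nefl (6.63). Prx, for instance, held 8.22 and 8.52 FPKM at D4 and 303 and 193 at D7. Nefl, a neurofilament, had the largest difference and held 20 and 67 counts at D4 and 2791 and 4075 at D7. The genes higher at D4 that were lower at D7 were Atf3 (-1.29), Fosl1 (-2.02), Gdnf (-2.29), Hmga2 (-1.99), Ccl2 (-1.66), Gbp2 (-1.30), Shh (-1.30), Serpine2 (-1.79), Kcng1 (-1.26), Nrcam (-1.41), Dusp10 (-1.39), MSTRG.8516.9 (-1.54). Ednrb and Tyrp1 were higher at both days, with D7 minus D4 values of 1.69 and 1.17. Spp1, not called at D4, was at -1.71.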

How the results depend on the processing

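No called difference among the 320 named mRNAs and lncRNAs changed sign in any alternative fit, and 575 of 679 alternative values of 59 counts stayed within 1.5 times the reported one. Of 3852 alternative values for named mRNAs and lncRNAs, 3622 kept their side of the threshold. The cause of each change listed here was not tested, except where a stricter or looser threshold or fewer samples makes it by construction.

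Testing the 2-fold change itself gave 1683 mRNAs (977 higher, 706 lower) and 460 lncRNAs (235 higher, 225 lower), and the counts of members called higher became 6 for AP-1 and immediate early genes, 6 for neurotrophic factors and receptors, 6 for debris uptake and lipid handling, 4 for chemokines and receptors, 5 for antigen presentation, class II, 3 for oncofetal growth regulators, 3 for TGF-beta family, 2 for axon guidance, 1 for glycolysis, lactate and glucose transport, 0 for respiratory chain, 2 for lymphocytes, 0 for mast cells, 3 for pigment cell lineage and the counts of members called lower became 5 for node, paranode and internode contacts, 4 for neurotrophic factors and receptors, 1 for immature and non-myelinating Schwann cell genes, 1 for neurofilament and neuronal mRNAs, 3 for collagens, 1 for laminins, integrins and basement membrane, 0 for TGF-beta family, 0 for axon guidance, 2 for glycolysis, lactate and glucose transport, 1 for endothelial cells, 0 for smooth muscle and pericytes, 1 for adipocytes, 1 for skeletal muscle. Dropping the fold threshold gave 6715 mRNAs (3281 higher, 3434 lower), and an adjusted p under 0.01 left 409 lncRNAs (213 higher, 196 lower). With library totals as the scaling, 1077 mRNAs were called lower, and the counts of members called higher became 2 for hedgehog pathway, 2 for interferon-stimulated genes, 7 for laminins, integrins and basement membrane, 2 for respiratory chain and the counts of members called lower became 1 for immature and non-myelinating Schwann cell genes, 1 for axon guidance, 1 for endothelial cells. In the fit of the 4 libraries alone, the counts of members called lower became 6 for TGF-beta family, 3 for smooth muscle and pericytes, 12 for adipocytes. Without the filter on low counts 865 lncRNAs were called (431 higher, 434 lower), and the counts of members called lower became 2 for smooth muscle and pericytes. In DESeq2, the counts of members called lower became 2 for smooth muscle and pericytes. Scaling lncRNAs with the mRNAs gave 1278 lncRNAs called lower. Counting overlaps of at least 1 base gave 11 pairs of lncRNA and gene with opposite directions. Ranking by scaled counts (CPM) shared 7 of the 12 largest rises.

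The library letters a and b were not treated as pairs in the main fit. Same-lettered control and D4 libraries had deviations correlated at 0.0103 over mRNAs and 0.0456 over lncRNAs. With 2 libraries a group, these values cannot settle whether the letters pair the samples. With the letter as a replicate block, 898 lncRNAs were called (444 higher, 454 lower), and the counts of members called lower became 5 for TGF-beta family, 3 for smooth muscle and pericytes. The other counts of calls stayed within 1.5 times under the block, and 3 named mRNAs or lncRNAs lost and 4 gained a call.

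Leaving out 1 library in turn gave 304 to 757 lncRNAs (167 to 402 higher, 135 to 390 lower) and 2540 to 3253 mRNAs. The list counts that moved ranged over 5 to 7 lower for neurotrophic factors and receptors, 1 to 4 lower for neurofilament and neuronal mRNAs, 1 to 2 higher for interferon-stimulated genes, 3 to 5 higher for oncofetal growth regulators, 1 to 4 lower for laminins, integrins and basement membrane, 1 to 8 lower for TGF-beta family, 3 to 7 higher for axon guidance, 1 to 4 lower for axon guidance, 0 to 1 higher for respiratory chain, 2 to 8 lower for endothelial cells, 0 to 11 lower for smooth muscle and pericytes, 2 to 4 higher for lymphocytes, 0 to 1 higher for mast cells, 1 to 3 lower for adipocytes, 1 to 2 lower for skeletal muscle. With 2 rats a group, a fit without 1 library assumes that the lone library varies like the others.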
